A study of Mus musculus with 43 samples.

Results

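The genes described here encode the presynaptic vesicle release machinery, and were taken as the rows of the count table whose gene name was one of 49 named members. All 49 were found, each once, among 56980 genes. The 43 bulk RNA-seq libraries were made from L2/3 neurons that had been labelled with GFP by in utero electroporation at E15.5 and sorted from the somatosensory cortex of C57BL6J RccHsd mice. WT, Cux1 KO and Cux2 KO animals were sampled at E19 with 4 libraries per sex and genotype. At P4 there were 3 libraries per sex of WT and of Cux2 KO and 2 libraries of Cux1 KO males, and at P7 there were 2 WT female and 3 WT male libraries. Cux2 KO was a germline deletion (Cux2-/-) at both ages. Cux1 KO at E19 was the germline Cux1ΔC/ΔC allele. At P4 it was Cux1 f/Δ23 tissue in which only electroporated cells received Cre, from pCAG-iCre given with pCALNL-GFP, whereas WT and Cux2 KO cells received pCAG-GFP, so plasmid mix and genotype cannot be told apart there. Nothing in the labels says that libraries came from separate litters, and p-values measure the spread between these libraries.

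Neurotransmitter is released when synaptic vesicles fuse with the presynaptic membrane. The vesicle SNARE VAMP2 pairs with SNAP25 and syntaxin 1 on the membrane, complexins hold and assist the paired complex, and synaptotagmin 1 triggers fusion when calcium enters. Active zone scaffolds such as RIMs, ELKS, bassoon, piccolo and liprins place vesicles near calcium channels, MUNC13 proteins prime them, and the ATPase NSF with SNAP adaptors takes spent SNARE complexes apart. In upper-layer neurons axons grow and first contacts form around birth, before most synapses mature.

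The members comprised 6 SNARE and disassembly genes, 12 synaptotagmins and other C2 domain sensors, 5 complexins, priming factors and SNARE regulators, 9 active zone scaffolds, 7 synapsins, Rab3 proteins and effectors, 6 vesicle membrane proteins and transporters and 4 chaperones and recycling genes. By GENCODE M39 on GRCm39, 26 of the 49 share exon bases with another gene, and because the strand setting of the counting is not stated, their counts could include reads of the partner. The shared part was 33.7% of exon length for Doc2a, 22.7% for Syn3, 20.2% for Ppfia2, 18.0% for Rab3a and 17.1% for Syp. Vamp2, Cplx1, Cplx2, Syt1, Stx1a, Snap25 and Slc17a6 share none.

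The upstream sequences of 4 members are shown because Vamp2 and Cplx2 were called between the mutants at P4, Cplx1 is the paralogue of Cplx2, and Syt1 is the fast calcium sensor. Each is the window of 250 bases before the annotated gene start on GRCm39, read 5′ to 3′ on the gene's own strand, with the GC box GGGCGG or its reverse complement in capitals.
Vamp2, chr11:68979066-68979315, + strand: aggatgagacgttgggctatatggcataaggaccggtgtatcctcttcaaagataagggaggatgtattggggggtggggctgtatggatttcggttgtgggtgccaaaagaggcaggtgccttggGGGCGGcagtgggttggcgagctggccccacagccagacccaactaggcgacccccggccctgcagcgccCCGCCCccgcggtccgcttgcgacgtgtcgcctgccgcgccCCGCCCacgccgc
Cplx2, chr13:54518904-54519153, + strand: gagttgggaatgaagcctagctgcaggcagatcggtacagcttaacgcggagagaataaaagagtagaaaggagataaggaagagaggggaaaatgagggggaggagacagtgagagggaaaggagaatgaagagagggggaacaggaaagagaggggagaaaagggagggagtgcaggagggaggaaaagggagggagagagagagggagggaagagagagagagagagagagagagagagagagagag
Cplx1, chr5:108697900-108698149, - strand: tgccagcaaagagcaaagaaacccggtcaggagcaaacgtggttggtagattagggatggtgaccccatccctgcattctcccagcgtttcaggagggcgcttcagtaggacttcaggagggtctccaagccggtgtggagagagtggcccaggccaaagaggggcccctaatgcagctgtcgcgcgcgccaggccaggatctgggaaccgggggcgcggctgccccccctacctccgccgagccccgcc
Syt1, chr10:108846857-108847106, - strand: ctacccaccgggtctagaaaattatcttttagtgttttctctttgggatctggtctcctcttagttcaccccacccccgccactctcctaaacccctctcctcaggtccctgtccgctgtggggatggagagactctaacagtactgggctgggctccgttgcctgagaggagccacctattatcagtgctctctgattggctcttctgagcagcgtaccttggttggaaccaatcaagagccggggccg
The Vamp2 window holds 3 GC boxes and the other windows hold none. Among all members the GC box was found in 26 of 49 windows (53.1%), against 36.4% of the windows of 21618 protein-coding genes. The CUX core ATCGAT was in 0 of 49 member windows and in 0.786% of all windows. Its variant ATCAAT was in the Unc13b window alone among members (2.04%) and in 6.52% of all windows, and the cAMP response element TGACGTCA was in 0 of 49 and in 1.69%. Both strands were searched, and these letters in these windows say nothing of the factors. Median GC content was 56.4% in member windows and 53.2% in all windows.

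At E19 every member was detected in every WT library. Levels are given as CPM, each gene's count as a share of its library's total on a common scale, set with one set of TMM factors over the 43 libraries, and levels of different genes are compared per kilobase of exon. Rab3a, the vesicle GTPase, had the highest mean level at 78.6 ± 8.01 CPM per kb (SD, n = 8). It was followed by Vamp2 at 72.5 ± 8.18, Syt11 at 64.4 ± 4.97, Cplx2 at 53.2 ± 14.4 and Syt4 at 40.9 ± 11.4 CPM per kb. Neighbours in this order differed by no more than the larger of their SDs. Syt17, Syt2, Sv2b, Syn3 and Syt13 had the lowest levels, each under 0.3 CPM per kb.

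**Figure D1:**
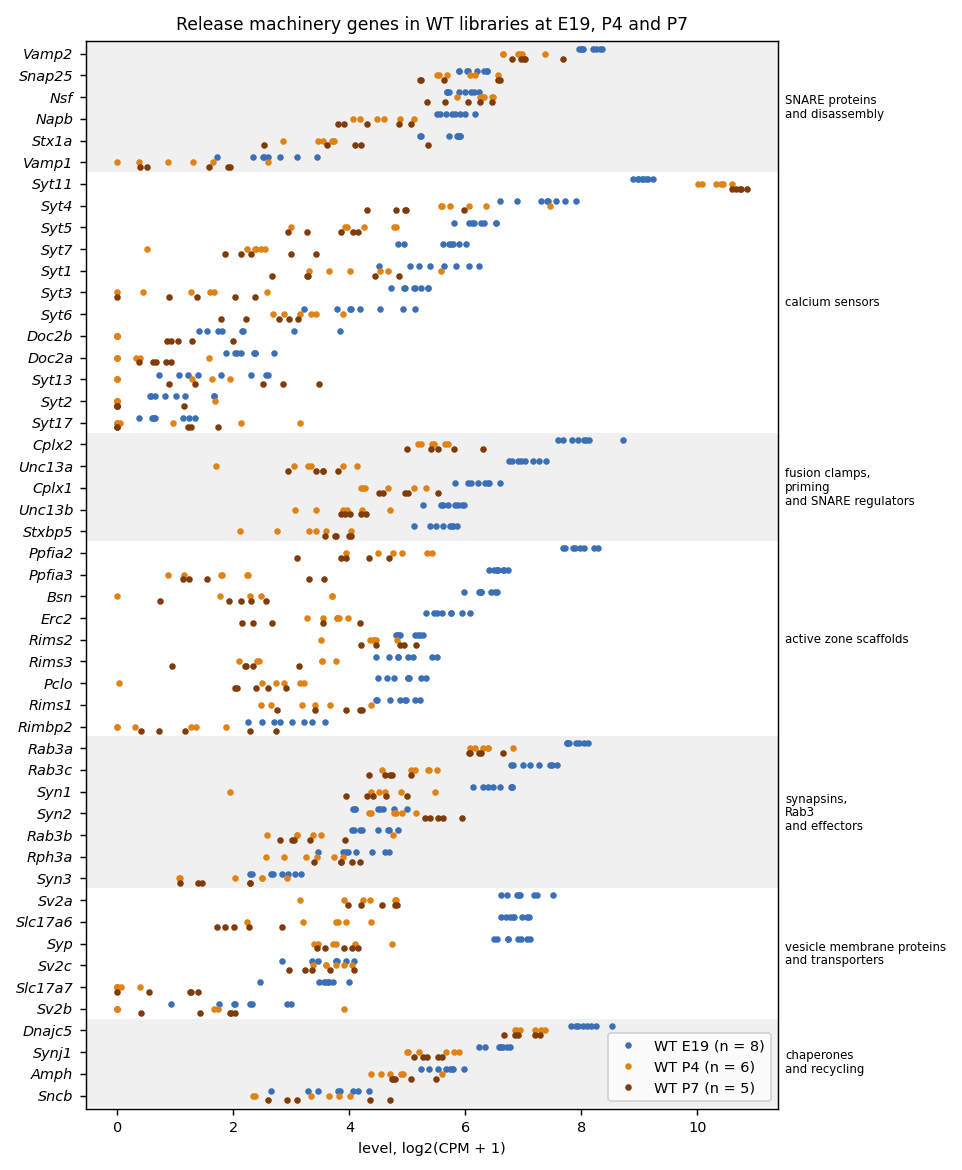
Level of each of the 49 genes in each WT library as log2(CPM + 1), grouped by role, with E19 in blue, P4 in orange and P7 in brown. At P4 most genes sit to the left of their E19 points and Syt11 sits to the right. Several genes overlap between these ages, among them Snap25, Nsf, Syn2, Sncb, Syt1 and Syt4.

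Levels of most scaffolds, priming factors, C2 domain genes and vesicle proteins were lower at P4 than at E19 in WT libraries, while Syt11 was higher. By role the median log2 fold change was -2.88 for vesicle membrane proteins and transporters and -2.48 for active zone scaffolds. It was -2.40 for complexins, priming factors and SNARE regulators, -1.71 for C2 domain genes and -1.24 for SNARE and disassembly genes. For synapsins, Rab3 proteins and effectors it was -0.93, and for chaperones and recycling genes -0.88. Of 49 members, 33 were lower and 1 was higher at P4 by edgeR's quasi-likelihood test with sex as a covariate, where a call needed an adjusted p under 0.05 together with a log2 fold change beyond 1 in either direction. Among 20091 genes tested, 23.3% were called lower and 22.6% higher by the same rule. The median log2 fold change of the members was -1.84, and that of all genes was 0.04. In the sum over the other 48 genes, without Syt11, WT libraries held 2945 to 3922 CPM at E19, 944 to 1427 CPM at P4 and 871 to 1390 CPM at P7.

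All 9 scaffolds had negative log2 fold changes and 8 were called lower, Rims2 falling short of the fold threshold at -0.67. Ppfia3 encodes liprin-α3, a scaffold that recruits active zone proteins. Ppfia3, at chr7:44988545-45016901 on the minus strand, ranged from 84.3 to 105 CPM with a median of 93.3 in the 8 E19 libraries and from 0.836 to 3.74 CPM with a median of 2.47 in the 6 P4 libraries. The log2 fold change was -5.32 ± 0.30 (SE) with an adjusted p of 1.28e-09 by edgeR. The highest P4 library was far below the lowest E19 library. Ppfia2, the liprin-α2 gene, went from a median of 244 CPM (205 to 311) to a median of 27.6 CPM (14.3 to 41.8), a log2 fold change of -3.13 ± 0.22. Erc2, which encodes an ELKS scaffold, went from a median of 50.1 CPM (38.8 to 66.6) to a median of 12.8 CPM (8.59 to 14.7), a log2 fold change of -2.07 ± 0.14. None of these 3 genes overlapped between the ages.

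All 5 complexins, priming factors and SNARE regulators were lower at P4. Cplx2, at chr13:54519154-54531730 on the plus strand, ranged from 192 to 421 CPM with a median of 253 at E19 and from 35.5 to 50.8 CPM with a median of 42.4 at P4. Its log2 fold change was -2.61 ± 0.16, with an adjusted p of 2.38e-09 by edgeR. The other 4 fell by log2 fold changes between -1.58 for Cplx1 and -3.78 for Unc13a, the MUNC13-1 gene.

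Of the 6 SNARE and disassembly genes, 4 were lower at P4. Vamp2, at chr11:68979316-68983210 on the plus strand, was at 248 to 327 CPM with a median of 276 at E19 and at 99.2 to 165 CPM with a median of 121 at P4, a log2 fold change of -1.22 ± 0.11. Stx1a, the syntaxin 1A gene, was at 36.0 to 59.3 CPM with a median of 57.0 at E19 and at 6.22 to 12.3 CPM with a median of 11.4 at P4, a log2 fold change of -2.29 ± 0.18. Snap25 was at 58.2 to 82.3 CPM with a median of 68.4 at E19 and at 44.3 to 93.3 CPM with a median of 58.8 at P4. Its ages overlapped, and its log2 fold change of -0.21 ± 0.14 did not pass (adjusted p = 0.218 by edgeR). Napb, the β-SNAP gene, fell by 1.27 on the log2 scale, whereas Nsf, at a log2 fold change of 0.36 and an adjusted p of 0.0117 by edgeR, was below the fold threshold. Differences between the genes were not tested.

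Of the 12 synaptotagmins and other C2 domain genes, 8 were lower and 1 was higher. Syt11, at chr3:88632134-88682471 on the minus strand, encodes a synaptotagmin that does not bind calcium and acts in vesicle trafficking. It was at 474 to 604 CPM with a median of 531 at E19 and at 1034 to 1554 CPM with a median of 1315 at P4. The log2 fold change was 1.27 ± 0.09, with an adjusted p of 1.4e-08 by edgeR, and the ages did not overlap. Its level per kb ranked 3 among members at E19 and 1 at P4 and P7. Syt1 was at 21.9 to 73.9 CPM with a median of 44.8 at E19 and at 8.86 to 47.0 CPM with a median of 18.6 at P4, with overlapping ages, a log2 fold change of -1.15 ± 0.34 and an adjusted p of 0.00778 by edgeR. Doc2b, a high-affinity calcium sensor at chr11:75659792-75686907 on the minus strand, was at 1.65 to 13.2 CPM with a median of 2.96 at E19. It had 571 counts over the 8 E19 libraries and 0 counts in all 6 P4 libraries. Its mean at E19, raised by WT male 3 at 13.2 CPM, was 54.9-fold above a floor of 3 counts per library at P4.

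Of the 6 vesicle membrane proteins and transporters 4 were lower, as were 3 of the 7 synapsins, Rab3 proteins and effectors. Rab3a was at 215 to 278 CPM with a median of 229 at E19 and at 66.4 to 112 CPM with a median of 80.3 at P4, a log2 fold change of -1.53 ± 0.11 with an adjusted p of 1.54e-08 by edgeR. The vesicular glutamate transporter genes were both lower. Slc17a6 (VGLUT2), at chr7:51271434-51320867 on the plus strand, was at 97.3 to 136 CPM with a median of 112 at E19 and at 3.69 to 19.8 CPM with a median of 12.8 at P4, and its log2 fold change was -3.26 ± 0.29. Slc17a7 (VGLUT1), the transporter of mature cortical excitatory neurons, was at 4.52 to 14.8 CPM at E19 and at 0 to 0.304 CPM at P4, with 13 counts in all over the 6 P4 libraries. Synaptophysin and SV2A, vesicle membrane proteins encoded by Syp and Sv2a, had log2 fold changes of -2.98 and -2.77. Sv2b, Sv2c, Syn2, Syn3, Rab3b and Rph3a were not called, the last pair passing the adjusted p but not the fold threshold, at log2 fold changes of -0.91 and -0.93. In all, 15 members were not called, 2 of them SNARE genes, 3 C2 domain genes and 3 recycling genes.

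**Figure D2:**
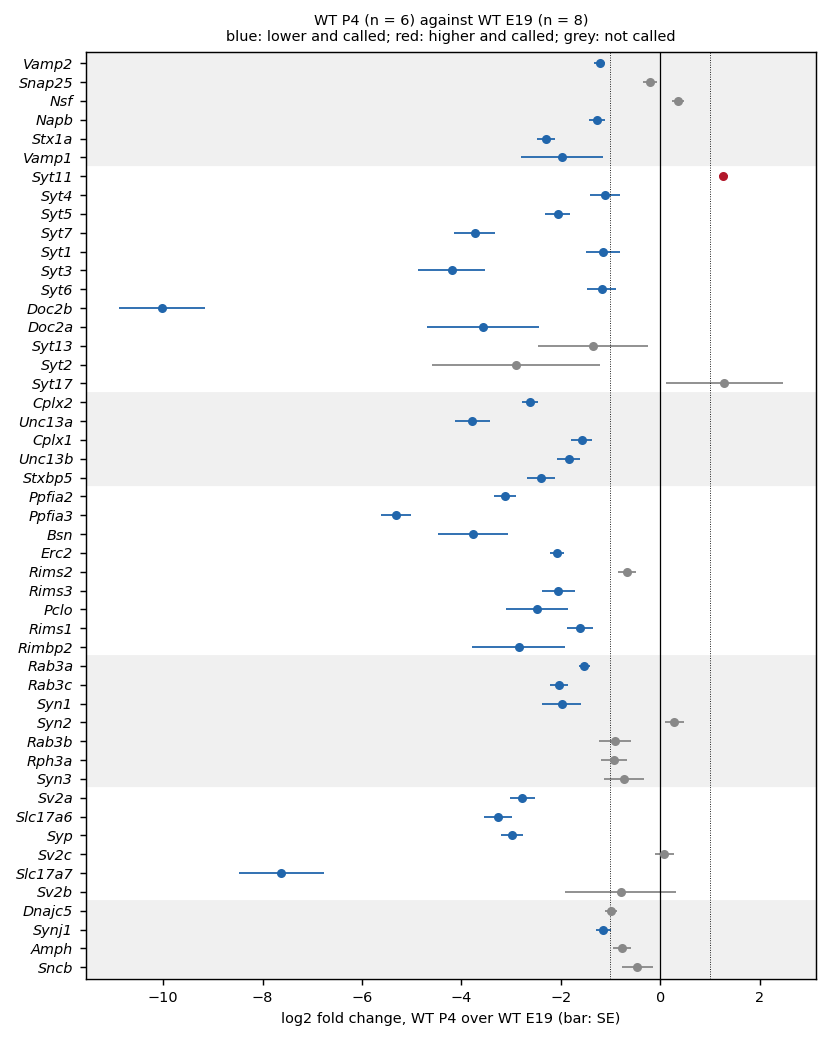
Log2 fold change of each gene in WT P4 over WT E19, with its standard error, in role order. The 33 genes called lower are blue, Syt11 is red, the genes not called are grey and dotted lines mark a log2 fold change of 1 in either direction.

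Markers of upper-layer identity, glia and vessels moved with these differences, while the sums of deep-layer and interneuron markers overlapped between E19 and P4. In WT libraries 13 deep-layer markers summed to 1579 to 1919 CPM at E19, 1343 to 1893 CPM at P4 and 820 to 1236 CPM at P7. The 17 interneuron markers summed to 369 to 1207, 761 to 2037 and 264 to 668 CPM. In P4 WT males Nfib alone was 952 to 1142 CPM of the deep-layer sum, whereas Tbr1 was at 2.43 to 19.2 CPM. Overlap of the sums therefore does not show that the single markers overlapped. Summed levels of 15 upper-layer markers, Cux1 and Cux2 included, were 4693 to 6783 CPM at E19, 955 to 1169 CPM at P4 and 552 to 764 CPM at P7 in WT libraries. Those of 14 astrocyte and radial glia markers were 2549 to 3693, 5435 to 8540 and 11096.5 to 15710.2 CPM, those of 10 oligodendrocyte lineage markers were 534 to 775, 759 to 3486 and 4127 to 6025 CPM, and those of 11 endothelial and mural markers were 25.2 to 88.2, 157 to 553 and 295 to 1150 CPM. The labelled cell type therefore stood beside markers of glia and vessels at P4 and P7, and the part of these markers in the result was not tested. In bulk libraries fewer cells of a type and less RNA per cell cannot be told apart. The E19 libraries came from one sequencing round and the postnatal ones from another, so age and round cannot be told apart between E19 and P4.

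**Figure D3:**
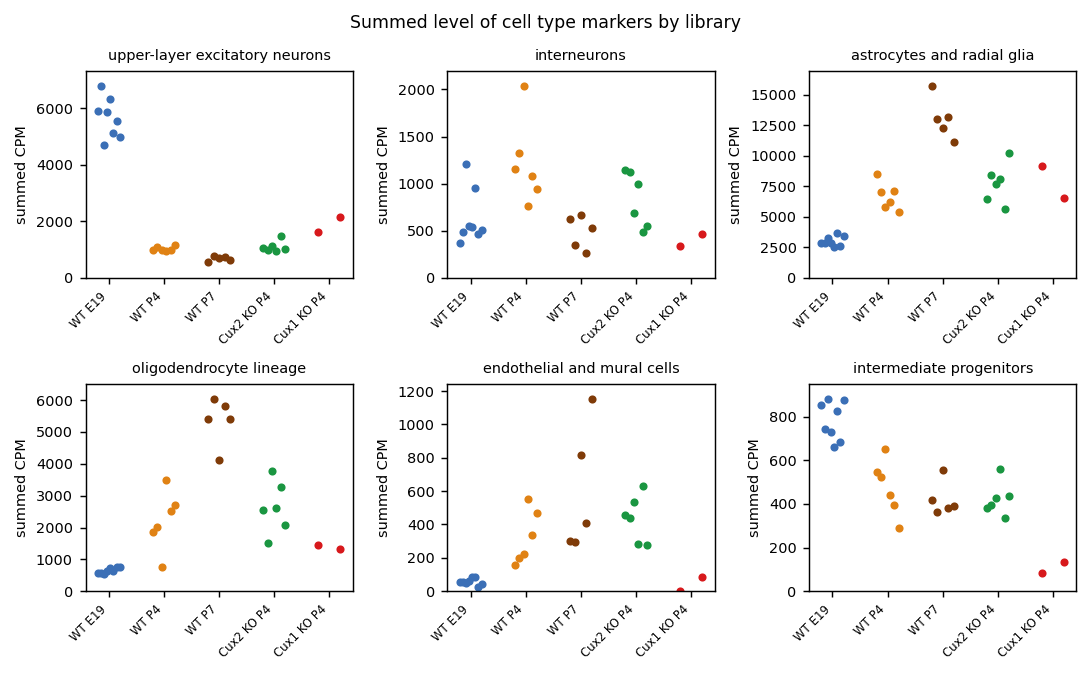
Summed CPM of 6 cell type marker lists, each point a library, for WT at 3 ages and for both mutants at P4. Upper-layer markers were lower in all P4 and P7 libraries shown than in any WT E19 library, and both Cux1 KO libraries stood above the WT P4 libraries.

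The rest of the pathway was read from 4 lists of other release genes, beside 23.3% of all genes called lower and 22.6% called higher at P4. Of 36 tested genes of SNARE assembly, docking and priming, 12 were lower and 8 were higher at P4, with a median log2 fold change of -0.46. Of 14 other synaptotagmins and C2 domain genes, 7 were lower and 2 were higher, Syt10 being higher by 4.53 on the log2 scale from a mean of 0.205 CPM in E19 females and 0.179 CPM in E19 males. Of 30 other vesicle proteins, transporters and Rabs, 6 were lower and 7 were higher, among the lower ones Slc32a1, the vesicular GABA transporter gene, at a log2 fold change of -3.32. Of 31 endocytosis and recycling genes, 13 were lower and 0 were higher, including the AP-2 adaptor genes Ap2a1 (-3.98) and Ap2b1 (-3.19) and the dynamin gene Dnm1 (-3.32). On the postsynaptic side, 20 of 40 genes were lower and 5 higher, with a median log2 fold change of -1.27.

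Few release genes were called between P4 and P7 in WT libraries. Of 49 members, 1 was called higher and 1 lower, against 1.42% of 22385 genes called higher and 0.63% called lower. Slc17a6 was at 14.3, 8.16 and 12.9 CPM in P4 males and 12.6, 19.8 and 3.69 CPM in P4 females. It was at 6.18, 2.29 and 3.83 CPM in P7 males and 3.04 and 2.61 CPM in P7 females. The ages overlapped, the log2 fold change was -1.78 ± 0.44 and the adjusted p was 0.0415 by edgeR. The call held in 3 of 11 fits that each left out one library. Doc2b, absent from the P4 counts, was at 0.805, 1.43 and 0.896 CPM in P7 males and at 1.06 and 2.99 CPM in P7 females. Its mean at P7 was 17.6-fold above the floor of 3 counts per library at P4. The call of Doc2b as higher held in 10 of 11 such fits, and without P7 female 2 its adjusted p was 0.0512 by edgeR.

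The other members were spread over log2 fold changes from -1.22 to 4.28 between these ages, with a median over all 49 of 0.07. Syn2 had an adjusted p of 0.0176 at a log2 fold change of 0.82, below the fold threshold, with 19.3 to 34.6 CPM at P4 and 38.6 to 60.6 CPM at P7 and no overlap. Slc17a7 was at 0 to 1.63 CPM at P7. Snap25 was at 36.1 to 96.2 CPM, Stx1a at 4.75 to 39.9 CPM, Vamp2 at 111 to 203 CPM and Syt1 at 5.34 to 27.8 CPM at P7, all with ranges overlapping P4. In the pathway lists Vamp8 and Rab3il1 were higher at P7, with log2 fold changes of 1.15 and 2.00, and in the postsynaptic list Camk2a was higher at 2.15. Beside these, 9 of 10 microglia markers were called higher at P7, their sum going from 68.0 to 110 CPM at P4 to 314 to 1579 CPM, as were 5 of 10 oligodendrocyte lineage and 5 of 14 astrocyte and radial glia markers, and 2 of 17 interneuron markers were lower and 1 higher. The part of these markers in the result was not tested.

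Cux1 KO against WT males at P4 asks whether loss of the CUX1 protein changes the release genes. By immunolabelling of brain sections, the paper reported that CUX1 protein was lost in the electroporated neurons. The targeted gene's counts give no check of the labels, because reads over the whole gene were counted and the alleles remove part of it. Cux1 was at 83.3 and 168 CPM in Cux1 KO and at 88.1 to 157 CPM in WT males. By edgeR's quasi-likelihood test 0 of 48 tested members were called, as were 0% of 19601 genes, and the smallest adjusted p over all genes was 0.0764 in this comparison of 2 libraries with 3. At an unadjusted p under 0.05, 18 members were higher and 2 lower, against 8.19% and 12.3% of all genes. The median log2 fold change was 1.39 for the members and -0.18 for all genes. Since the members were chosen with earlier results of these data known, the contrast with all genes is a description only.

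Other fits of the same comparison made calls. With the spread shared over all 14 P4 libraries, edgeR called 14 members higher and 1 lower, against 3.69% and 7.28% of 23658 genes. DESeq2 on the 5 male libraries called 18 higher and 1 lower, against 3.56% and 8.33% of 27186 genes, and with its fold change prior 17 higher and 1 lower, against 3.08% and 5.29%. Snap25, Syt6, Syt7, Vamp2, Stx1a, Rims1, Cplx1, Cplx2, Rab3c, Rph3a, Erc2, Ppfia3, Napb and Sncb were called higher and Syn3 lower in each of these 3 fits. Without Cux1 KO library 2, edgeR on the male libraries called 2 members higher, against 0.241% of genes higher and 2.61% lower, and the spread there came from WT alone, the lone Cux1 KO library being assumed to vary alike. Without any 1 of the other libraries it called 0.

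By library the levels stood as follows. Cplx2, whose protein clamps and assists SNARE complexes, was at 332 and 363 CPM in Cux1 KO, at 35.5, 36.4 and 42.0 CPM in WT males and at 51.8, 100.5 and 82.8 CPM in Cux2 KO males. Both Cux1 KO libraries were above each of the other 12 P4 libraries. The log2 fold change over WT males was 3.18 ± 0.16, with an unadjusted p of 5.97e-06 in edgeR's model and an adjusted p of 0.0764. Cplx1 was at 108 and 133 CPM against 18.4, 17.5 and 33.6 CPM in WT males, a log2 fold change of 2.37 ± 0.36 with the same adjusted p.

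Of the SNARE and disassembly genes, Vamp2, Snap25, Stx1a and Napb were above every WT male library in both Cux1 KO libraries, and Vamp1 and Nsf overlapped. Vamp2 was at 301 and 391 CPM in Cux1 KO and at 165, 119 and 124 CPM in WT males, a log2 fold change of 1.33 ± 0.22. Snap25 was at 194 and 293 CPM against 70.7, 66.9 and 93.3 CPM, a log2 fold change of 1.65 ± 0.26. Neither gene overlapped between the groups.

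Stx1a was at 51.7 and 71.7 CPM in Cux1 KO against 12.1, 9.98 and 12.1 CPM in WT males, a log2 fold change of 2.42 ± 0.29. Napb was at 69.8 and 109 CPM against 28.2, 21.2 and 33.5 CPM, a log2 fold change of 1.68 ± 0.32. Nsf, which works with Napb, was at 89.3 and 56.3 CPM against 87.9, 74.8 and 87.4 CPM, and overlapped.

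Among the C2 domain genes, Syt1 was at 104 and 84.0 CPM in Cux1 KO and at 21.96, 11.5 and 47.0 CPM in WT males. Its adjusted p was 0.192 by edgeR. Syt7, a slow calcium sensor of asynchronous release, was at 52.5 and 42.7 CPM against 4.26, 4.58 and 4.17 CPM, a log2 fold change of 3.44 ± 0.32. Syt11 was at 1167 and 1030 CPM against 1275, 1382 and 1079 CPM and overlapped, with a log2 fold change of -0.20 ± 0.17. Doc2b was at 2.51 and 6.14 CPM, from 50 and 265 counts, against 0 counts in WT males. The Cux1 KO mean was 74.7-fold above the floor. Its counts also varied between 0 and detected within a group, at 0, 0 and 85 in Cux2 KO females and 19, 24 and 0 in Cux2 KO males.

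The scaffold gene Ppfia3 was at 20.0 and 19.5 CPM in Cux1 KO and at 2.45, 0.836 and 2.50 CPM in WT males. Ppfia2 was at 76.0 and 79.7 CPM against 41.8, 26.0 and 29.1 CPM, and Erc2 at 31.5 and 66.0 CPM against 12.8, 14.7 and 13.1 CPM. All 3 were above WT males in both libraries, with adjusted p-values of 0.0887, 0.0979 and 0.0968 by edgeR.

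Rab3a was at 135 and 243 CPM in Cux1 KO and at 82.7, 77.9 and 112 CPM in WT males. Slc17a6 was at 33.3 and 17.5 CPM against 14.3, 8.16 and 12.9 CPM, and Slc17a7 at 0.804 and 0.463 CPM against 0, 0.304 and 0 CPM. Slc17a6 and Slc17a7 were above WT males in both libraries and overlapped the Cux2 KO libraries. Sv2b was at 1.91 and 1.27 CPM against 2.32, 0 and 13.97 CPM and overlapped.

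**Figure D4:**
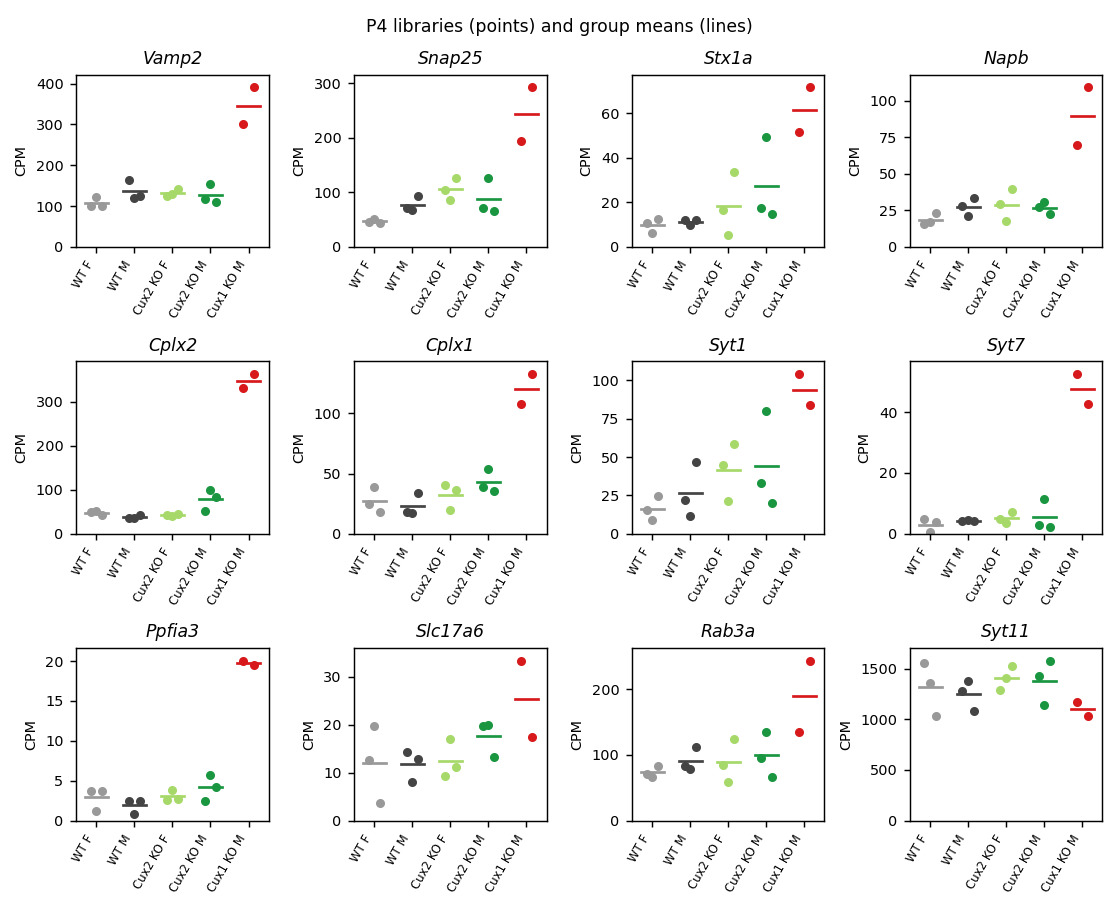
CPM of 12 release genes in each of the 14 P4 libraries by genotype and sex, with lines at group means and axes starting at 0. Both Cux1 KO libraries lie above all others for Vamp2, Snap25, Stx1a, Napb, Cplx1, Cplx2, Syt1, Syt7, Ppfia3 and Rab3a, but not for Slc17a6 or Syt11. For Rab3a, Stx1a and Syt1 the highest Cux2 KO male library nearly reaches the lower Cux1 KO library.

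In all, both Cux1 KO libraries were above every WT male library for 27 of 48 members and below for 2, Syn3 and Synj1, whereas 18.6% of all tested genes were above and 23.1% below. Because the members were chosen with earlier results of these data known, these counts describe them and are not independent support. Both Cux1 KO libraries were above all 12 other P4 libraries for 21 members, against 12.9% of genes. For some of these the margin over Cux2 KO male 2 was small. That library was at 135.1 CPM for Rab3a, 49.2 CPM for Stx1a and 80.1 CPM for Syt1. The lower Cux1 KO library was at 135.4, 51.7 and 84.0 CPM. Syn3, with 22.7% of its exon length shared with Fbxo7 and Timp3 on the opposite strand, was at 0 and 0.185 CPM in Cux1 KO and at 4.62, 6.56 and 1.10 CPM in WT males. Among the other release genes, at an unadjusted p under 0.05, 12 of 105 tested genes of the 4 pathway lists were higher and 9 lower, and 0 were called. Of 40 postsynaptic genes 7 were higher and 2 lower at that level, and 0 were called. The medians were 0.14 and 0.23 on the log2 scale.

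The Cux1 KO libraries at P4 also stood apart in their other markers. The paper reported that more Cux1 KO than WT neurons died during tissue dissociation, increasingly so with maturation. These libraries therefore hold the cells that survived it, and the part of this loss in the result was not tested. The Cux1 KO libraries detected 17049 and 19115 genes, against 20844 to 23736 in the other P4 libraries. Upper-layer markers summed to 1607 and 2138 CPM, against 955 to 1169 CPM in WT males, of which Mef2c alone was 655 and 1044 CPM, against 71.9 to 329 CPM. Of these 15 markers 4 were higher and 2 lower at an unadjusted p under 0.05. Pou3f2, for one, was at 116 and 94.3 CPM against 198 to 251 CPM, and Cux2 was at 80.4 and 96.6 CPM against 31.4 to 46.5 CPM. Interneuron markers (17 genes) summed to 340 and 465 CPM, against 761 to 1084 CPM, with Vip at 0 in both. They did not move one way: at an unadjusted p under 0.05 in edgeR's model 8 were lower and 4 higher, against 12.3% and 8.19% of all genes, and Sst was at 48.4 and 45.1 CPM against 3.19 to 21.6 CPM and Lhx6 at 10.8 and 57.9 CPM against 0 in every WT male library. Endothelial and mural markers summed to 0.201 and 86.5 CPM, against 335 to 553 CPM, with Tek and Kcnj8 at 0 in both, and intermediate progenitor markers (8 genes) to 85.5 and 132 CPM, against 288 to 440 CPM, with Eomes, Neurog1 and Neurog2 at 0 in both. Oligodendrocyte lineage markers summed to 1440 and 1318 CPM, against 2518 to 3486 CPM, microglia markers to 22.5 and 22.3 CPM, against 68.0 to 110 CPM, and ciliated ependymal markers to 8.54 and 10.5 CPM, against 43.6 to 121 CPM. Deep-layer markers summed to 852 and 1250 CPM, against 1343 to 1517 CPM. Nfib alone was at 438 to 636 CPM of this sum, against 952 to 1142 CPM. These markers did not move one way either. Ldb2 was at 39.9 to 42.9 CPM against 10.5 to 22.7 CPM, and Rprm at 78.7 to 140 CPM against 43.4 to 61.0 CPM. Cell cycle genes summed to 1204 and 467 CPM, against 1344 to 1635 CPM. Astrocyte and radial glia markers were at 9200 and 6531 CPM, against 5435 to 7104 CPM, and overlapped. The part of these markers in the result was not tested.

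Against Cux2 KO males of the same age, which differ from Cux1 KO in gene, allele type and plasmid mix, 3 of 49 members were called higher in Cux1 KO and 0 lower, where 0.745% and 2.24% of 19741 genes were called. They were Vamp2, with a log2 fold change of 1.44 ± 0.22 from 117, 155 and 111 CPM in Cux2 KO, Cplx2, at 2.15 ± 0.30, and Napb, at chr2:148535905-148574444 on the minus strand, at 1.75 ± 0.27 from 27.1, 30.5 and 22.4 CPM. Their adjusted p-values were 0.0491, 0.0491 and 0.0495 by edgeR, and Cplx1 followed at 0.0507. The groups did not overlap for any of the 4 genes. The 3 calls were lost on leaving out any 1 of the Cux2 KO libraries. Without Cux1 KO library 1 there were 8 members called higher and 0 lower, against 1.27% and 6.86% of genes, and without library 2 there were 7 higher and 4 lower, against 2.31% and 13% of genes, with Vamp2, Cplx2 and Napb called in both. In these fits the spread came from the Cux2 KO libraries alone, and the lone Cux1 KO library was assumed to vary alike. DESeq2 called 14 higher and 1 lower, against 3.09% and 8.9% of genes. Interneuron markers summed to 492 to 1001 CPM and endothelial and mural markers to 279 to 629 CPM in the Cux2 KO males, and the part of these markers in the result was not tested. Of the 4 pathway lists 3 of 109 genes were called higher, namely Unc13c, a MUNC13 priming gene, Ap2s1, an AP-2 adaptor subunit, and Atp6v1g2, a subunit of the vesicle proton pump, as was Homer2 of the 40 postsynaptic genes.

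At E19, Cux1 KO libraries differed from WT in 1 member with both sexes in 1 fit, against 0.24% of 18318 genes. Sv2b, a vesicle glycoprotein gene at chr7:74761975-74959131 on the minus strand, was lower, at 1.24, 0.935, 0.676 and 1.30 CPM in Cux1 KO females and 3.06, 2.38, 0.891 and 3.90 CPM in WT females. In males it was at 1.87, 0.981, 1.43 and 2.52 CPM in Cux1 KO and 3.03, 4.00, 6.95 and 6.58 CPM in WT. The sexes showed the same direction, with overlap within a sex only through WT female 3, and the log2 fold change was -1.47 ± 0.28 with an adjusted p of 0.0253 by edgeR. Sv2b was among the lowest members at E19, and its call was lost without Cux1 KO male 2 or 3, WT female 4 or WT male 3, at adjusted p-values up to 0.0698. Beside this, 2 of 7 tested intermediate progenitor markers were called higher in Cux1 KO, and 0 of the 15 upper-layer, 16 interneuron, 14 astrocyte and 11 endothelial and mural markers were called. The part of these markers in the result was not tested. Cux1 itself was at 289 to 378 CPM in Cux1 KO and 312 to 506 CPM in WT at this age.

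Slc17a6 passed the adjusted p but not the fold threshold, at a log2 fold change of 0.31 ± 0.07 and an adjusted p of 0.0392 by edgeR. It was at 131 to 156 CPM in the 8 Cux1 KO libraries and at 97.3 to 136 CPM in the 8 WT libraries, and the groups overlapped. Rims3, an active zone RIM protein gene, was at 17.4, 15.6, 19.6 and 19.7 CPM in Cux1 KO females and at 27.7, 33.4, 24.7 and 44.5 CPM in WT females. In males it was at 31.4, 17.0, 20.2 and 23.7 CPM against 31.1, 27.5, 41.8 and 20.9 CPM. Females did not overlap and males did, with a log2 fold change of -0.63 ± 0.15 and an adjusted p of 0.0638 over both sexes by edgeR.

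Within a sex 0 of 49 members were called at E19, against 0.0576% of genes in females and 0.0979% in males. At an unadjusted p under 0.05 there were 11 members in females, 10 of them lower, and 7 in males, 6 of them lower, by edgeR, where 6.87% of all genes passed in females, 3.83% lower, and 10.4% in males, 4.63% lower. DESeq2 called Rims3 in females and Sv2b in males, against 0.163% and 0.391% of genes. Cux1 KO and sex showed 0 interactions among members, against 0% of all genes, with 1 member at an unadjusted p under 0.05, against 3.81% of genes. In the other lists 0 pathway genes were called with both sexes, and Gria1, an AMPA receptor subunit gene of the postsynaptic list, was lower by 0.92 on the log2 scale. Between E19 and P4 the Cux1 KO libraries differ in allele, plasmid and sequencing round, and the ages were not compared.

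**Figure D5:**
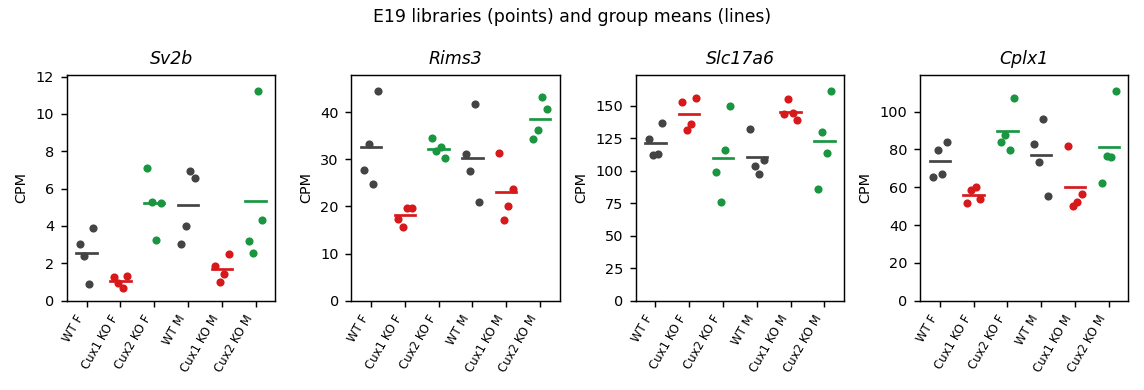
CPM of Sv2b, Rims3, Slc17a6 and Cplx1 in each E19 library by genotype and sex, with lines at group means and axes starting at 0. For Sv2b the Cux1 KO points lie below the WT points in males, and in females only 1 WT library reaches them.

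In Cux2 KO, 0 members were called by edgeR at either age. At E19 the shares called over all genes were 0.0287% in females, 0.121% in males and 0.109% with both sexes, and 9, 1 and 5 members had an unadjusted p under 0.05 by edgeR, of which 8, 1 and 5 were higher, against 4.62%, 7.94% and 8.75% of all genes in either direction and 2.96%, 4.8% and 5.25% higher. At P4 they were 0%, 0% and 0.0503%, and 7, 3 and 6 members had an unadjusted p under 0.05, all of them higher in Cux2 KO, against 7.39%, 5.76% and 6.28% of all genes in either direction and 4.56%, 2.79% and 3.56% higher. DESeq2 called 0 members at E19, and at P4 it called Snap25 in females and Cplx2 in males, against 0.602% and 1.28% of genes. Snap25 was at 104, 85.6 and 126 CPM in Cux2 KO females and at 45.9, 50.7 and 44.3 CPM in WT females, without overlap, and at 71.6, 127 and 66.0 CPM in Cux2 KO males, which overlapped WT males. Its log2 fold change in females was 1.17 ± 0.17, with an adjusted p of 0.451 by edgeR.

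Syt1 in P4 females was at 44.7, 21.0 and 58.3 CPM in Cux2 KO and 15.2, 8.86 and 24.4 CPM in WT, and overlapped. Cux2 KO by sex interactions were 0 of 49 by edgeR at both ages, against 0% of all genes at each, with 2 and 5 members at an unadjusted p under 0.05, against 3.78% and 7.27% of genes, and DESeq2 called 2 at P4, Syt2 and Cplx2, against 0.874% of genes. Syt2 was at 1.47 CPM or less in every Cux2 KO library at P4. Cux2 itself was at 29.6 to 60.5 CPM in Cux2 KO and at 28.1 to 46.5 CPM in WT at P4. At E19 it was at 268 to 417 CPM in Cux2 KO and at 332 to 517 CPM in WT, and overlapped too. Its total therefore gives no check of the labels at either age.

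Between WT females and males 0 tested members were called by edgeR at an adjusted p under 0.05 and the fold thresholds of each age. At E19 the count was 0 of 48, where 0.0461% of genes were called. It was 0 of 45 at P4 against 0%, and 0 of 48 at P7 against 0.0247%. At an unadjusted p under 0.05 there were 3, 4 and 0 members, against 3.67%, 7.28% and 4.36% of genes. DESeq2 called 1 member at P4, Syt2, against 0.841% of genes, with 1 female library at 2.19 CPM and the other 5 at 0. At P4, Snap25 was at 45.9, 50.7 and 44.3 CPM in females and at 70.7, 66.9 and 93.3 CPM in males, without overlap, with a log2 fold change of -0.71 ± 0.18 (females over males) and an adjusted p of 0.653 by edgeR. Total counts per library were 13321095 to 20715732 at E19, 19499125 to 60559585 at P4 and 15312029 to 27633827 at P7. Within WT at P4 they were 20919432 to 37079440 in females and 35891853 to 60559585 in males. The part of depth in the result was not tested.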

How the data were processed

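Read counts per gene were deposited by the authors, who aligned 60-nt single-end reads to GRCm39 with hisat2, with the Y chromosome masked in females and its pseudoautosomal region in males, removed duplicates and counted primary alignments with featureCounts on Ensembl annotation; the strand setting is not given in the sources used here. The libraries carry no molecular identifiers, so floors cover counting error only. The counts were used as deposited, and no 2 libraries held identical values. In R 4.3.3, edgeR 4.0.16 (TMM, filterByExpr, quasi-likelihood test) was fitted to the libraries of each comparison, with Benjamini-Hochberg adjustment over all genes tested. A call needed an adjusted p under 0.05 together with a log2 fold change beyond 0.5 (E19) or 1 (P4, P7 and between ages) in either direction; interactions had no fold threshold. Standard errors are the fold change divided by the square root of F. DESeq2 1.42.0 and other filters, scalings and fits were alternatives. Replicate numbers were checked for pairing in 16 comparisons: the mean correlation of same-numbered libraries ranged from -0.0862 to 0.233, and in 0 comparisons with 3 or more pairs were all pairs over 0.1, so the numbers were not treated as pairs. Exon lengths, overlaps and start sites were from GENCODE M39. The floor for a gene at 0 was 3 counts per library. Scripts were tested on simulated data. The members, gene lists and tests were chosen with earlier results of these data known. Values per library are given for members called in any comparison, up to 6 by adjusted p between ages, and for Snap25, Stx1a, Vamp2, Syt1, Slc17a6 and Slc17a7. Values of Cplx1, Syt7, Nsf, Ppfia2, Rims3, Syn2, Syn3 and Syt2, and of the markers Mef2c, Pou3f2, Sst and Lhx6, were added after they were seen. Some genes of the pathway and postsynaptic lists are not reported here by name.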

Additional observations from a re-analysis of the deposited data

Results flagged for a closer look

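Among 90 groups of 4 libraries of the named genes, 2 held a library far from the other 3, by the gap to its nearest neighbour over the range of the group, and chance gives about 1 in 20. Stx1a was at 36.7 CPM in WT female 3 at E19, where the nearest library was at 56.6 CPM, a gap of 0.902 of the range. Syt1 was at 68.3 CPM in Cux1 KO male 1 at E19, where the nearest library was at 38.5 CPM, a gap of 0.847 of the range. The critical value was 0.829.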

How the results depend on the processing

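Counts of called members depended most on the tool where Cux1 KO libraries at P4 were compared. Against WT males the count of 0 became 19 by DESeq2, 18 with its prior and 15 with all P4 groups in one fit, and 0 to 2 on leaving out each library. The median log2 fold change of 1.39 became 0.87 with the DESeq2 prior. Against Cux2 KO males the count of 3 became 0 with no filter on low counts, 15 by DESeq2 with or without its prior, 13 with all P4 groups in one fit, 0 with the replicate block, and 0 to 11 on leaving out each library. In Cux1 KO at E19 the count of 1 with both sexes became 2 with no fold threshold, with no filter, by DESeq2 and with the replicate block, and 0 to 2 on leaving out each library. Within females and within males it went from 0 to 1 with no filter and by DESeq2 with or without its prior, and leaving out each library gave 0 to 2 in females. In Cux2 KO at P4 it went from 0 to 1 by DESeq2 in females, with or without its prior, and in males without it, and the interaction with sex from 0 to 2 by DESeq2. In WT, the sexes at P4 went from 0 to 1 by DESeq2, and P7 against P4 went from 2 to 1 with the DESeq2 prior or the replicate block, and to 0 to 2 on leaving out each library. P4 against E19 gave 32 to 36 calls on leaving out each library, and 35 with the replicate block. The log2 fold change of Sv2b between Cux1 KO and WT males at P4, -1.78, was 2.96 with the replicate block and ranged from -2.37 to 0.49 on leaving out each library, positive without WT male 3. The cause of these shifts was not tested. Where 1 of the 2 Cux1 KO libraries at P4 was left out, the other was assumed to vary like the other group.

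In the 8 pairwise comparisons with 3 or more pairs, 0 had every library closest to its own number. The replicate block moved no other count of calls by over 1.5 times. Only 2 Cux1 KO libraries existed at P4, and E19 was sequenced in another round than P4 and P7.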
